A study of Mus musculus with 4 samples.

Results

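The 10 heart muscle genes were followed in lung RNA from normal and OVA-induced mice with and without Rab44: Ryr2, Actc1, Myh6, Myl7, Myl4, Tnnt2, Tnni3, Nppa, Sln and Mybpc3. They were taken by name from the deposited table, 10 of its 41079 genes, and all 10 had counts in every library. The list was chosen by name with the counts of these same 4 libraries in view, so the levels and ratios of its members are descriptions and carry no test. 1 whole-lung RNA library was sequenced for each of 4 groups: WT and Rab44-KO mice, each either normal or OVA-induced. The Rab44-KO mice came from CRISPR/Cas9 editing on a C57BL/6 background, and mice of both genotypes were females aged 8 to 14 weeks. For OVA induction, ovalbumin with alum was injected into the peritoneum on days 0, 7 and 14 at 100 μg, and 50 μL holding 100 μg OVA was then given through the nose for 4 days, with lungs taken on day 21. The normal mice are labelled as untreated, although the protocol attached to them also names a PBS challenge, and the number of mice behind a library is not given in the sources used here. Whole lung holds many cell types, and in such bulk RNA fewer heart muscle cells and less RNA per cell cannot be told apart.

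Heart muscle cells contract when calcium released from the sarcoplasmic reticulum binds troponin on the thin filament and lets myosin heads pull on actin. In mice, muscle of the atrial kind continues from the left atrium along the pulmonary veins into the lung, so lung tissue can hold these transcripts. Atrial and ventricular muscle differ in their light chains, the atria using Myl7 and Myl4 and the ventricles Myl2 and Myl3, and adult atria also make the hormone precursor encoded by Nppa and the calcium pump inhibitor encoded by Sln.

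The stretch just before a gene's start can hold short sequences that heart and muscle transcription factors bind. RefSeq windows of 250 bases before the start (build GRCm38.p6) were found for 9 of the 10 genes, all but Sln, and were searched on both strands for 5 motifs. GATA was searched as AGATAA and as the variant TGATAA. The M-CAT motif was searched as CATTCC. The TATA motif was searched as TATAAA. The CArG and MEF2 motifs, which allow several letters at some positions, are given by name. The GATA letters stood in the windows of 4 members, Nppa, Myl7, Mybpc3 and Tnnt2, and in 16.6% of all 32851 windows. These 4 windows are shown because they hold the motif found in the most members. Matched letters are in capitals and everything else is in lower case, each window reading 5′ to 3′ along the gene's own strand.
Nppa: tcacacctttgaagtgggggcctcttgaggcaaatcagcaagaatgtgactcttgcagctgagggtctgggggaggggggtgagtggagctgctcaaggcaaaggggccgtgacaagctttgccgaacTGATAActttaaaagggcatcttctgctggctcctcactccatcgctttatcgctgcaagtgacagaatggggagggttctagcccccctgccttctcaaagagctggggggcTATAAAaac
Myl7: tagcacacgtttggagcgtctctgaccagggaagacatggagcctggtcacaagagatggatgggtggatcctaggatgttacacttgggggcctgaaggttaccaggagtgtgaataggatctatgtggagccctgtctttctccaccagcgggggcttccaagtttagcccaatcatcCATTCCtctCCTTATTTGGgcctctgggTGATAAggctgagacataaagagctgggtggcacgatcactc
Mybpc3: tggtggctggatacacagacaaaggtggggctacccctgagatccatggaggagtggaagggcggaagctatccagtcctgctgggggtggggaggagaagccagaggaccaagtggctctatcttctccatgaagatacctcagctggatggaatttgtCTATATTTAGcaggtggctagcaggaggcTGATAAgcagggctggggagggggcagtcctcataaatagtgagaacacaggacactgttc
Tnnt2: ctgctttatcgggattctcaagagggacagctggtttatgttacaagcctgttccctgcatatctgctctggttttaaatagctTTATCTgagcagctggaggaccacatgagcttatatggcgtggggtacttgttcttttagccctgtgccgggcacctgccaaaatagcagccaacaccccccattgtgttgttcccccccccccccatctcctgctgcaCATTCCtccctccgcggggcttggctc

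The windows lie at chr4:148000472-148000721 on the plus strand for Nppa, chr11:5898783-5899032 on the minus strand for Myl7, chr2:91117894-91118143 on the plus strand for Mybpc3 and chr1:135836084-135836333 on the plus strand for Tnnt2, and none overlaps an annotated exon. In Nppa the GATA letters begin 122 bases before the start and a TATA match begins 9 bases before it. Myl7 carries an M-CAT match, a CArG match and a GATA match beginning 70, 61 and 42 bases before the start. Mybpc3 has a MEF2 match beginning 90 bases and a GATA match beginning 61 bases before the start. In Tnnt2 the GATA match, on the opposite strand, begins 166 bases and an M-CAT match 27 bases before the start. No matches overlapped in these windows. M-CAT letters were found for 3 members (Myh6, Myl7, Tnnt2) and in 12.6% of all windows, CArG letters for 2 (Actc1, Myl7) and in 1.47%, MEF2 letters for 1 and in 2.92%, and TATA letters for 1 and in 12.4%. The windows of Ryr2, Myl4 and Tnni3 held none of them. Annotated exons overlapped the windows of Actc1 by 12 bases, Myh6 by 34 and Tnni3 by 84. For Myl4 the overlap, summed over exons, was 280 bases. Another Tnnt2 window, with 250 exon bases, held no match. A match describes letters only, and the members with and without GATA letters are set against their values further on.

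The counts per library ran from 18112901 to 19910236, and 24316 to 25003 genes were detected. The targeted gene Rab44 had 251 and 810 counts in the normal and OVA-induced WT libraries against 1 and 0 in the Rab44-KO libraries, so the libraries matched their genotype labels. Fold changes are log2 ratios (log2FC) of CPM, counts scaled to library size with TMM factors. Their bracketed intervals are exact 95% intervals of the count ratio that cover counting error only. With 1 library per group there is no replicate check, no p-value was computed, and each comparison is between libraries and not between conditions. All 4 comparisons also had a trend along transcript length. Across 12862 genes with at least 100 counts and a matched transcript, log2FC and length had a Spearman's rho of 0.56 in the OVA-induced pair. It was 0.23 in the normal pair, -0.35 for OVA-induced over normal in WT and 0.29 for the same in Rab44-KO, over 12400 to 12802 genes, so values with that trend removed are also given, taken along the longest protein-coding GENCODE transcript.

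The 10 genes together made up 786 CPM in the normal WT library and 870 CPM in its Rab44-KO counterpart. After OVA induction they made up 346 CPM in WT and 778 CPM in Rab44-KO. The OVA-induced WT library thus stood below the other 3, which lay close to each other. It held the lowest value of 9 of the 10 genes, the exception being Actc1, which was lowest in OVA-induced Rab44-KO. The normal Rab44-KO library held the highest value of 6 genes, the OVA-induced Rab44-KO library that of Myh6, Tnnt2 and Ryr2, and the normal WT library that of Myl7.

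**Figure D1:**
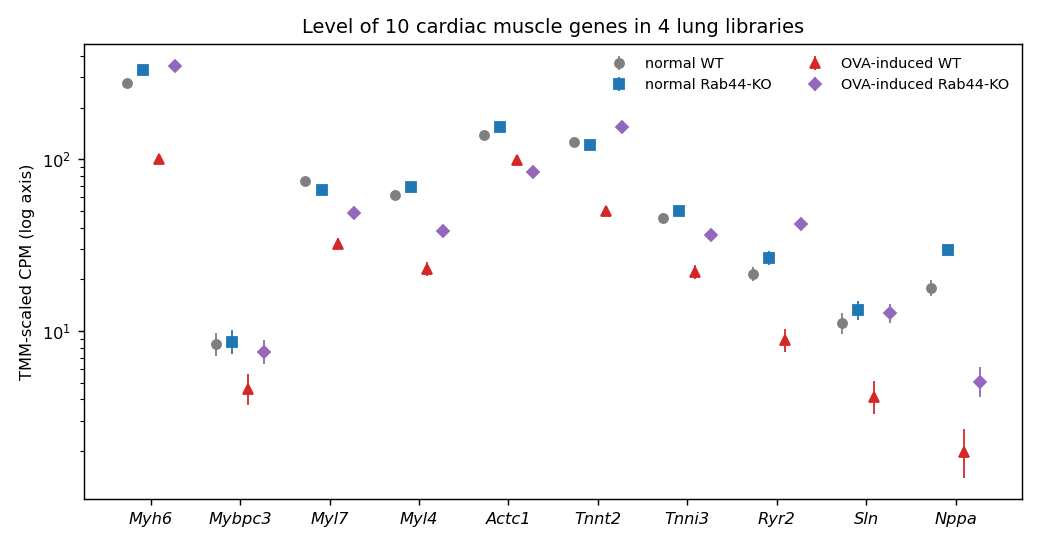
TMM-scaled CPM on a log axis for each of the 10 genes in the 4 libraries, with exact 95% Poisson intervals for counting error. The OVA-induced WT library is the lowest of the 4 for 9 genes, and Nppa is low in both OVA-induced libraries.

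Between normal WT and normal Rab44-KO the members were close. None was over 2-fold higher or over 2-fold lower, against 2.77% and 2.0% of the 18718 genes compared. Their median log2FC was 0.15, with 8 genes higher and 2 lower, and the median of all genes was 0.00. Nppa had the largest ratio at 0.74. In the OVA-induced pair, 5 of the 10 were over 2-fold higher in Rab44-KO, against 8.4% of the 19259 genes compared, and none was over 2-fold lower, against 7.34%. The median was 1.05 and 9 of 10 were higher in Rab44-KO, where the median of all genes was -0.02.

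Set against normal WT, the OVA-induced WT library was lower for all 10 genes and over 2-fold lower for 8, against 5.2% of the 19023 genes compared. The median was -1.31. In the Rab44-KO pair only Nppa was over 2-fold lower after OVA induction, against 3.85% of the 19073 genes compared, and 3 members were higher, with a median of -0.31. No member was over 2-fold higher after OVA induction in WT or in Rab44-KO, against 8.99% and 6.44% of all genes. These 4 comparisons share libraries pairwise, and both that show large differences use the single OVA-induced WT library.

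**Figure D2:**
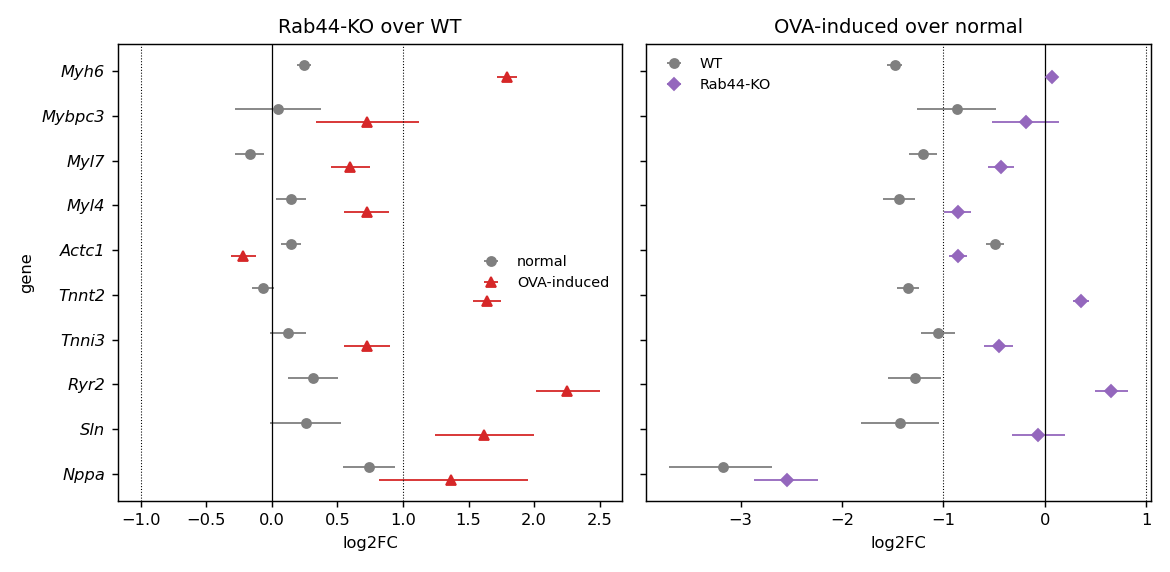
log2FC of each gene for Rab44-KO over WT (left, normal and OVA-induced) and for OVA-induced over normal (right, WT and Rab44-KO), with exact 95% counting intervals and dotted lines at 2-fold. In the left panel 9 of the 10 OVA-induced values lie above 0, and in the right panel all 10 WT values lie below 0.

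Myh6 encodes the alpha myosin heavy chain, the motor of the thick filament in atrial muscle and in the adult mouse ventricle (14:54941921-54966927 on GRCm38, minus strand). Under normal conditions it had 5367 counts in WT and 6059 in Rab44-KO, and under OVA-induced conditions 1942 in WT and 6774 in Rab44-KO, the most of any member in each library. Only the OVA-induced WT library was low. Rab44-KO over WT was 0.25 (0.20 to 0.30) in normal and 1.79 (1.72 to 1.87) in OVA-induced lungs. OVA-induced over normal was -1.48 (-1.55 to -1.40) in WT and 0.07 (0.02 to 0.12) in Rab44-KO, the latter -0.02 with the length trend removed. The neighbouring Myh7 shares 5.53% of the 150-base windows of Myh6 transcripts, so a small part of these counts could be split between both genes.

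Mybpc3, cardiac myosin-binding protein C, which braces the thick filament (2:91118144-91136516, plus strand), had few counts, 161 and 158 in the normal and 89 and 148 in the OVA-induced libraries, WT before Rab44-KO. All following lists of counts keep this order, normal before OVA-induced and WT before Rab44-KO. Its normal ratio of Rab44-KO over WT was 0.05 with an interval that spans 0 (-0.28 to 0.37), and its OVA-induced ratio was 0.72 (0.34 to 1.12). OVA-induced over normal was -0.87 (-1.26 to -0.49) in WT, and in Rab44-KO the -0.19 (-0.52 to 0.14) was not distinguishable from 0 at this depth.

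Both atrial light chains had the same order of libraries in the OVA-induced pair. Myl7, the atrial regulatory light chain (11:5896637-5898782, minus strand), had 1427, 1207, 626 and 955 counts. It was slightly lower in Rab44-KO under normal conditions, at -0.17 (-0.28 to -0.06), and higher under OVA-induced conditions, at 0.60 (0.45 to 0.75), or 0.84 with the length trend removed. Myl4, the atrial essential light chain (11:104550663-104595753, plus strand), had 1196, 1260, 446 and 741 counts. Its ratios of Rab44-KO over WT were 0.15 (0.03 to 0.26) and 0.72 (0.55 to 0.90). Unlike Myh6, both light chains stayed below their normal level in OVA-induced Rab44-KO, Myl7 at -0.43 (-0.56 to -0.31) and Myl4 at -0.86 (-0.99 to -0.73). In WT the corresponding values were -1.20 and -1.44.

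The thin filament genes went apart from each other. Actc1, cardiac alpha actin (2:114047282-114053548, minus strand), had 2664, 2808, 1912 and 1654 counts. It was the only member lower in Rab44-KO than in WT within the OVA-induced pair, at -0.22 (-0.31 to -0.12), and this sign turned to 0.11 with TPM and to 0.20 with the length trend removed. TPM raised every member in this pair, Myh6 for instance from 1.79 to 2.12, so its turn came with a shift shared by all. OVA-induced over normal was -0.49 (-0.58 to -0.41) in WT and -0.86 (-0.95 to -0.77) in Rab44-KO, so as counted the difference was larger in Rab44-KO. With the length trend removed the values came close to each other, at -0.66 and -0.73.

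Tnnt2, cardiac troponin T, the subunit that ties troponin to tropomyosin (1:135836354-135852260, plus strand), had 2438, 2211, 965 and 3024 counts. Rab44-KO over WT was -0.07 (-0.15 to 0.02) in normal and 1.64 (1.53 to 1.74) in OVA-induced lungs. Tnni3, cardiac troponin I, the inhibitory subunit of the same complex (7:4518305-4524229, minus strand), had 876, 908, 426 and 708 counts and ratios of 0.13 (-0.01 to 0.26) and 0.72 (0.55 to 0.90). Relative to normal Rab44-KO, OVA-induced Rab44-KO was higher for Tnnt2, at 0.36 (0.28 to 0.44), and lower for Tnni3, at -0.45 (-0.60 to -0.31). The troponin transcripts therefore differed in proportion between libraries. Per 100 Tnnt2 counts there were 35.9, 41.1 and 44.1 Tnni3 counts in the first 3 libraries. In OVA-induced Rab44-KO there were 23.4 (21.5 to 25.4).

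Calcium release and uptake were represented by Ryr2 and Sln. Ryr2, the calcium release channel of the cardiac sarcoplasmic reticulum (13:11553102-12106945, minus strand), had 412, 487, 171 and 820 counts, the highest in OVA-induced Rab44-KO. Its OVA-induced ratio of Rab44-KO over WT was the largest of any member at 2.25 (2.01 to 2.50), 1.58 with the length trend removed, against 0.31 (0.12 to 0.51) in normal lungs. OVA-induced over normal was -1.28 (-1.55 to -1.02) in WT and 0.66 (0.49 to 0.82) in Rab44-KO. Sln, sarcolipin, a small inhibitor of the calcium pump SERCA (9:53850164-53854560, plus strand), had 213, 242, 80 and 247 counts. Its OVA-induced ratio was 1.62 (1.25 to 2.0) and its normal ratio 0.26 (-0.01 to 0.53). In Rab44-KO the OVA-induced and normal libraries did not differ beyond counting error, at -0.07 (-0.33 to 0.20), a value that was 0.06 with TPM and 0.11 with the length trend removed.

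Nppa, the precursor of atrial natriuretic peptide (4:148000722-148002079, plus strand), had its own pattern. The normal libraries had 341 and 541 counts, WT first, and the OVA-induced libraries 38 and 99. Both OVA-induced libraries were below both normal libraries. OVA-induced over normal was -3.17 (-3.70 to -2.69) in WT and -2.54 (-2.87 to -2.23) in Rab44-KO, the lowest of the 10 genes in each. Rab44-KO over WT was 0.74 (0.54 to 0.94) in normal and 1.37 (0.82 to 1.95) in OVA-induced lungs.

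The 4 members with GATA letters before the start covered much of the range, with OVA-induced ratios of Rab44-KO over WT of 0.60 (Myl7), 0.72 (Mybpc3), 1.37 (Nppa) and 1.64 (Tnnt2). The 5 members whose windows lack GATA letters had -0.22 (Actc1, a sign that turns with TPM or removal of the length trend), 0.72 (Myl4), 0.72 (Tnni3), 1.79 (Myh6) and 2.25 (Ryr2). The ranges overlap.

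The difference between the OVA-induced and the normal ratio of Rab44-KO over WT, on the log2 scale, was positive for 9 members. It was 1.94 (1.63 to 2.24) for Ryr2, 1.71 (1.57 to 1.84) for Tnnt2, 1.54 (1.45 to 1.63) for Myh6 and 1.36 (0.91 to 1.81) for Sln. These 4 formed the upper end as counted, although the interval of Sln reaches into those of lower genes. Myl7, Mybpc3, Nppa, Tnni3 and Myl4 followed between 0.77 and 0.57, and their intervals overlap. For Actc1 it was -0.37 (-0.49 to -0.25), but with the length trend removed its normal and OVA-induced ratios were both 0.20. With that trend removed the normal and OVA-induced ratios were 0.21 and 1.49 for Myh6. They were 0.17 and 1.22 for Tnni3 and 0.21 and 1.22 for Myl4, so these genes lay nearer to Myh6 than as counted.

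The trend of log2FC with transcript length bears on these values. Across the 10 members Spearman's rho of the OVA-induced ratio with transcript length was 0.55, a description over genes that share both libraries. With the trend removed the OVA-induced ratio of Rab44-KO over WT was 2.08 for Tnnt2, 2.04 for Sln, 1.91 for Nppa, 1.58 for Ryr2 and 1.49 for Myh6. It was 1.22 for both Tnni3 and Myl4, 0.84 for Myl7, 0.68 for Mybpc3 and 0.20 for Actc1. The order of the members thus depends on this step. Deposited TPM implies other lengths for some members than their transcripts have, relative to Myh6: 2.57 against 0.154 for Myl4, 0.0819 against 0.216 for Sln and 0.258 against 0.149 for Tnni3. When the trend was taken along these implied lengths, Myl4 stood at 0.25, Sln at 2.08 and Tnni3 at 1.08.

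Dividing by Myh6 within a library removes depth and scaling, but not the length trend, and gives each member relative to the myosin motor. Sln had 3.97, 3.99, 4.12 and 3.65 counts per 100 Myh6 counts, and all 4 intervals overlap (3.44 to 4.55, 3.50 to 4.54, 3.25 to 5.15 and 3.20 to 4.14). With the length trend removed, however, the OVA-induced ratio of Sln (2.04) was above that of Myh6 (1.49). Tnnt2 had between 36.5 and 49.7, and from OVA-induced WT to OVA-induced Rab44-KO its ratio to Myh6 was 0.898-fold as counted but 1.503-fold with the length trend removed. Actc1 varied most among the abundant members, with 49.6 and 46.3 in the normal libraries, 98.5 (92.4 to 105) in OVA-induced WT and 24.4 (23.1 to 25.8) in OVA-induced Rab44-KO, a 0.248-fold ratio between the last 2 that was 0.409-fold with the trend removed.

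Myl7, Myl4, Tnni3 and Mybpc3 were lowest per Myh6 in OVA-induced Rab44-KO. Myl7 had 26.6, 19.9, 32.2 and 14.1 counts per 100 Myh6 counts. Myl4 had 22.3, 20.8, 23.0 and 10.9. Tnni3 had 16.3, 15.0, 21.9 and 10.5. These gaps were smaller with the length trend removed. From OVA-induced WT to OVA-induced Rab44-KO the ratio to Myh6 was 0.476-fold for both Myl4 and Tnni3, but 0.825-fold and 0.826-fold with the trend removed. For Myl7 it was 0.437-fold and then 0.637-fold, and for Mybpc3 0.476-fold and then 0.568-fold. Ryr2 was highest per Myh6 in the same library, at 7.68, 8.04 and 8.81 in the first 3 libraries and 12.1 (11.2 to 13.0) in OVA-induced Rab44-KO, although its 1.37-fold difference in the OVA-induced pair was 1.06-fold with the trend removed. Nppa had 6.35 and 8.93 in the normal libraries against 1.96 (1.38 to 2.70) and 1.46 (1.19 to 1.78) in the OVA-induced ones, whose intervals overlap each other. Between those 2 its ratio to Myh6 was 0.745-fold as counted but 1.33-fold with the trend removed. The light chains stayed closer to each other, with 119, 95.8, 140 and 129 Myl7 counts per 100 Myl4 counts.

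**Figure D3:**
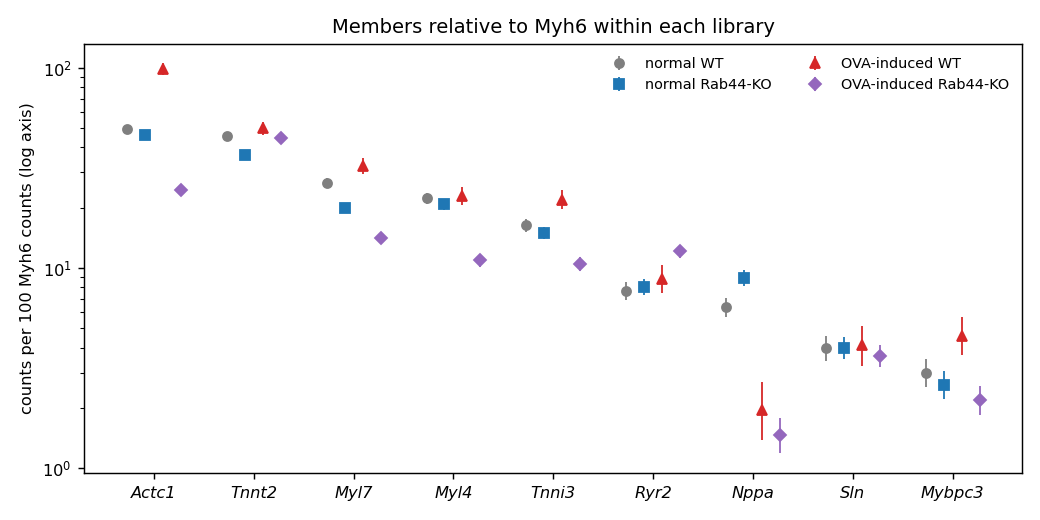
Counts of 9 members per 100 Myh6 counts in each library on a log axis, with exact 95% intervals for counting error. Sln lies between 3.65 and 4.12 in all 4 libraries, Actc1 ranges from 24.4 to 98.5, and Nppa is lowest in both OVA-induced libraries.

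Levels can be compared between genes only per transcript length. As a share of the 10 genes' counts per kilobase of the longest protein-coding transcript, Myl7 was first in normal WT with 24.2%, followed by Tnnt2 with 20.3%, Actc1 with 18.1%, Myl4 with 12.7%, Tnni3 with 9.62% and Myh6 with 8.79%. Mybpc3 (0.387%) and Ryr2 (0.245%) were the lowest. In OVA-induced WT Actc1 was first with 28.5%, and in OVA-induced Rab44-KO Tnnt2 was first with 30.3% while Actc1 took 13.5%. Nppa took 3.95% and 6.26% in the normal and 0.964% and 1.38% in the OVA-induced libraries. The makeup of a library was compared with that of normal WT as the share of the members' summed deposited TPM that would have to move between genes to match it. This was 6.39 percentage points for normal Rab44-KO and, for the OVA-induced libraries, 12.1 in WT and 16.3 in Rab44-KO, so the OVA-induced Rab44-KO library, near normal WT in summed level, was the farthest from it in makeup. Per kilobase of transcript the 3 values were 5.67, 11.1 and 15.5, and normal Rab44-KO stood at 4.24 when shares were taken of counts. The TPM of Myl4 rests on a length far above that of its transcript, so Myl4 has little weight in the TPM values (0.886% of normal WT) and more in those per kilobase.

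Other genes of heart muscle were read from lists, to be set against the share of all genes past 2-fold in the OVA-induced pair, 8.4% with Rab44-KO above WT and 7.34% with it below. Of 22 further sarcomere genes, 13 were over 2-fold higher and none over 2-fold lower in Rab44-KO within the OVA-induced pair, with a median log2FC of 1.32, or 1.20 with the length trend removed. In the normal pair none was over 2-fold in either direction, and the median was 0.21. Titin (Ttn), the molecular spring of the sarcomere, had 538, 710, 266 and 983 counts and an OVA-induced ratio of 1.88, or 1.19 with the length trend removed. Xirp2 (69, 78, 22 and 113 counts), Cmya5 (241, 317, 104 and 487) and Nrap (83, 91, 27 and 124) had OVA-induced ratios of 2.34, 2.22 and 2.18, or 1.72, 1.59 and 1.93 with that trend removed. The most abundant genes of the list were nearer to 0, as Tpm1 at -0.11 and Nebl at 0.43, or 0.01 and -0.03 with the trend removed. So was Tcap, which caps titin in striated muscle, at 0.22 (-0.02 to 0.45), or 0.71 with the length trend removed, with 809, 948, 276 and 323 counts, low after OVA induction in both genotypes.

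Of 14 calcium-handling genes 13 had enough counts, and 4 were over 2-fold higher and 1 lower in OVA-induced Rab44-KO. Their median was 0.43, but 0.01 with the length trend removed. Pln, phospholamban, the other inhibitor of SERCA, had 279, 334, 127 and 529 counts and a ratio of 2.05 (1.77 to 2.34). Hrc, a calcium-binding protein of the sarcoplasmic reticulum, had 181, 170, 39 and 214 counts and a ratio of 2.44 (1.95 to 2.98). Casq2, the cardiac calcium store protein calsequestrin, had 233, 223, 89 and 239 counts and a ratio of 1.41 (1.06 to 1.78). Each of these was lowest in OVA-induced WT. The gene over 2-fold lower was S100a1, a calcium-binding regulator also made outside muscle, at -1.19, or -0.89 and so under 2-fold with the length trend removed, and Atp2a2, the pump SERCA2, which nearly all cells use, was at 0.61.

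Of 11 genes of muscle energy supply with enough counts, 4 were over 2-fold higher and none lower, with a median of 0.33, or 0.72 with the length trend removed. Myoglobin (Mb), the oxygen store of heart and red muscle, had 1182, 1150, 263 and 608 counts, so that it was lower after OVA induction in both genotypes, at -2.18 in WT and -1.01 in Rab44-KO, like Nppa. Ckmt2, the muscle mitochondrial creatine kinase, had 188, 180, 52 and 185 counts. Of 13 cardiac channel and junction genes 4 were over 2-fold higher and none lower, with a median of 0.33, but with the length trend removed 2 were and the median was 0.07. Of 9 heart transcription factors with enough counts only Tbx20 was over 2-fold higher (42, 69, 18 and 104 counts, 2.51), and Mef2a, Mef2c, Tbx5 and Gata6, which lung cells also express, lay between 0.09 and 0.67. The median of these factors was 0.35, or 0.17 with the length trend removed.

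**Figure D4:**
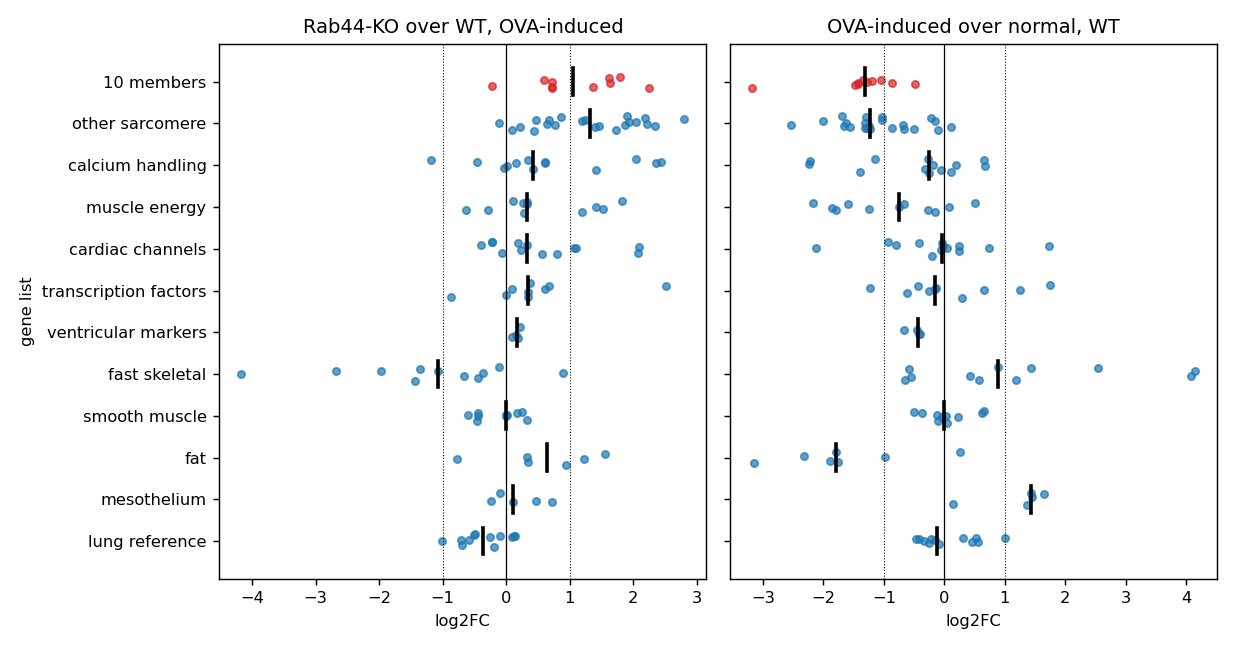
log2FC of each gene with at least 10 counts, by list, for Rab44-KO over WT in OVA-induced lungs (left) and OVA-induced over normal in WT (right), with black bars at list medians and dotted lines at 2-fold; a gene with 0 counts in a library is placed at a floor of 3 counts. The 10 members and the other sarcomere genes have medians of 1.05 and 1.32 on the left, while smooth muscle genes have a median of 0.00.

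The natriuretic peptide genes Nppb and Nppc had no more than 3 counts in any library. The receptors Npr1 and Npr2, which make cyclic GMP, had OVA-induced ratios under 2-fold. The clearance receptor Npr3, which removes the peptides, was present at 1831, 2196, 1281 and 4479 counts. Its ratio of Rab44-KO over WT was 0.34 (0.25 to 0.43) in normal and 1.80 (1.71 to 1.89) in OVA-induced lungs. Corin, the protease that activates the Nppa product, had between 82 and 133 counts. Its OVA-induced ratio was under 2-fold, and was -0.10 with the length trend removed.

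Atrial and ventricular markers bear on which kind of heart muscle the libraries held. Of 7 atrial markers 5 had enough counts. Mybphl, an atrial myosin-binding protein, had 190, 197, 59 and 101 counts. The subunits of the acetylcholine-gated potassium channel, Kcnj3 (122, 139, 28 and 121 counts) and Kcnj5 (57, 72, 30 and 128 counts), were over 2-fold higher in Rab44-KO within the OVA-induced pair, at 2.10 and 2.08. Kcna5 had 20 to 35 counts, and Gja5, which vessels also use, had 793 to 1088. In the same pair the ratios were 0.76 for Mybphl, 0.79 (-0.03 to 1.67) for Kcna5 and -0.065 for Gja5. The median of the 5 was 0.79. With the length trend removed it was 1.21 and 3 were over 2-fold higher, against 6.97% of all genes. Bmp10 and Nppb had no more than 3 counts anywhere.

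Among ventricular markers, Myl2 had 0, 4, 2 and 0 counts and Irx4 had 0 in all 4 libraries. The limit of 3 counts taken for a count of 0 is 0.154 to 0.164 CPM depending on the library, and the exact 95% Poisson intervals reach 0.189 to 0.202 CPM. Myl3 had 46, 78, 29 and 31 counts. Myh7, which overlaps in sequence with Myh6, had 520, 439, 385 and 453, Hey2 had 95 to 124 and Kcnip2 had 28 to 37. None of the 4 with enough counts was over 2-fold in the OVA-induced pair, where their median was 0.17, or 0.36 with the length trend removed.

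Markers of other tissues were measured in the same libraries. The 10 smooth muscle genes, led by Myh11, Acta2, Tagln and Des, had a median of 0.00 in the OVA-induced pair and summed to between 1198 and 1352 CPM, with none over 2-fold in any of the 4 comparisons. Of 8 fat markers 7 had over 3 counts in some library, and their sums were 64.2 and 85.5 CPM in the normal against 23.8 and 31.6 CPM in the OVA-induced libraries, WT first. Adipoq, the fat cell hormone adiponectin, had 92, 159, 25 and 59 counts, and Plin1, which coats fat droplets, had 62, 122, 18 and 35. The fat markers were therefore low in both OVA-induced libraries, as Nppa and Mb were. In the OVA-induced pair they also moved in the members' direction, with 5 of 6 higher and 2 over 2-fold higher in Rab44-KO, against 8.4% of all genes, and a median of 0.64, or 0.96 with the length trend removed. Their part in the result was not tested.

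The 12 lung epithelial and vessel genes had median ratios of Rab44-KO over WT of -0.03 (normal) and -0.36 (OVA-induced), and 9 housekeeping genes had medians of -0.10 and -0.61. Both lists thus lay on the other side of 0 from the 10 members in the OVA-induced pair. With the length trend removed the lung list stood at -0.02, the housekeeping list at -0.32 and the members at 1.36.

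Genes with the most similar pattern over the 4 libraries were ranked among 13889 genes by the distance of their centred log2 CPM from the members' median profile. The nearest was Chrm2, a muscarinic acetylcholine receptor, with 788, 813, 328 and 669 counts and a distance of 0.134. Tmem132d, Gpr137c, Pcdh17, Hif3a, Gm51671, Lrtm2, Slc5a12 and Slc2a13 were also among the 10 nearest, up to a distance of 0.230. Of the members, Tnni3 was nearest to their own median at 0.273, and 24 genes outside the list were nearer than that. Ryr2 at 1.01 and Nppa at 2.09 were the farthest. Of 47 ranked genes of the sarcomere, calcium, energy and channel lists 5 were among the 100 nearest, which is 10.6% against 0.72% of all ranked genes.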

How the data were processed

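Lung RNA from 4 groups of mice, 1 library each, was analysed. The authors trimmed 150-bp paired-end reads from a directional kit, used HISAT2 for alignment to GRCm38 and featureCounts for counting; tool versions, the strand setting and the treatment of multi-mapping reads are not given in the sources used here. They deposited raw counts and TPM, and their notes name DESeq2. Counts were scaled with edgeR 4.0.16 (TMM, factors 0.973 to 1.02, R 4.3.3), and log2FC used a prior count of 0.125 and genes whose higher library held 10 or more counts. Ratios have exact Clopper-Pearson and CPM exact Poisson 95% intervals. Python 3.11.15, scipy 1.17.1 and matplotlib 3.10.9 were used. The count ratio and its counting interval, scaled by total counts, were tested on simulated Poisson counts without variation between libraries beyond counting. The other steps were not tested this way. A model with additive effects of genotype and OVA was not run.

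The 10 members, the other gene lists and the rule for naming genes were chosen with earlier results of these data known. The rule names Rab44, the members, all natriuretic, atrial, ventricular and slow skeletal genes, the 4 most counted genes and the 4 with the largest OVA-induced ratio of each other list, and the 10 most similar genes. Some genes the rule takes are not reported here. Tcap, Myog, Acta1 and Snap25 were named after their values were seen. Alternatives were DESeq2 1.42.0 size factors, total counts, TMM on 2 libraries or without immunoglobulin genes, a prior count of 2, TPM with a pseudocount of 0.1, an absolute log2FC above 2, count minimums of 1 or 50, and removal of a running median over 501 genes along the length implied by counts over TPM. Shares per kilobase and the same removal along GENCODE transcript length, whose values the report gives, were added after seeing the data. Positions are from GENCODE M21 on GRCm38, since the table's own starts equal that build's for 0 of 10 members.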

Additional observations from a re-analysis of the deposited data

Results flagged for a closer look

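For 3 genes the OVA-induced library was below the normal one in WT and above it in Rab44-KO. For Ryr2 the log2FC was -1.28 and 0.66, a difference of 1.94. For Tnnt2 it was -1.35 and 0.36, a difference of 1.71. For Myh6 it was -1.48 and 0.07, a difference of 1.54, and the second value was -0.02 with the trend along transcript length removed. For another set the ratio of Rab44-KO over WT had opposite signs in normal and OVA-induced lungs. It was 0.15 and -0.22 for Actc1, a difference of -0.37, but 0.20 and 0.20 with that trend removed. With TPM, which raised every member in both pairs, it was positive in both. It was -0.17 and 0.60 for Myl7, a difference of 0.77. It was -0.07 and 1.64 for Tnnt2, a difference of 1.71. With 1 library per group none of these differences was tested, and for Tnnt2 the normal ratio's counting interval includes 0.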

How the results depend on the processing

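The median over the 10 members stayed between 0.14 and 0.19 for Rab44-KO over WT in normal lungs, 1.02 and 1.36 in OVA-induced lungs, -1.45 and -1.29 for OVA-induced over normal in WT, and -0.31 and -0.19 in Rab44-KO, over all alternatives. The count of members over 2-fold higher in OVA-induced Rab44-KO, 5, was 8 with TPM, which called 13.5% of all genes, and 1 at an absolute log2FC above 2, which called 1.82%. The count over 2-fold lower in OVA-induced WT, 8, was 1 at that limit, which called 1.14%. The makeup of normal Rab44-KO differed from normal WT by 4.24 percentage points in counts rather than 6.39 in TPM. Removal of the length trend moved 17 of 40 member values beyond their counting interval with the length implied by TPM and 20 with transcript length, and TPM moved 16. TPM moved every member the same way within a comparison. This shared shift turned the sign of Actc1 (0.11) in the OVA-induced pair and of Sln (0.06) between the Rab44-KO libraries. Removal of the length trend turned the same signs (0.14 and 0.09 with implied, 0.20 and 0.11 with transcript length). Transcript length also turned Myh6 between the Rab44-KO libraries (-0.02). The cause was not tested. No paired analysis was possible because each group holds 1 library, and for the same reason no library could be left out. Depth limits Nppa, with 38 counts in OVA-induced WT, and Sln and Mybpc3, with 80 and 89.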

Other observations

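Of 11 fast skeletal genes with enough counts, 6 were over 2-fold lower in Rab44-KO than in WT within the OVA-induced pair and none was over 2-fold higher, against 7.34% and 8.4% of all genes, with a median log2FC of -1.07, also when a count of 0 was set to the floor of 3 counts. Their levels were low. Acta1, skeletal alpha actin, had 1, 1, 20 and 1 counts and Myog, a regulator of muscle differentiation, had 1, 0, 19 and 0 in the order normal then OVA-induced, WT before Rab44-KO. Cacna1s, the skeletal calcium channel, had 16, 15, 94 and 35, and Ryr1, the skeletal calcium release channel, had 53, 47, 121 and 58. Tnnt3 had 65 to 104 counts without a 2-fold difference, and Atp2a1 had 76, 55, 49 and 92. Myh2, Myh4, Pvalb and Myod1 had no more than 3 counts in any library. Of the slow skeletal genes, Tnnt1 had 54, 52, 41 and 25 counts and Tnni1 had 0, 2, 11 and 3.

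Mesothelial genes, which mark the lung's outer lining, summed to 95.3, 158, 206 and 202 CPM, lowest in normal WT. In WT, OVA induction went with a median log2FC of 1.43 and with 4 of the 5 past 2-fold upward, against 8.99% of all genes. In the normal pair 3 were over 2-fold higher in normal Rab44-KO, against 2.77% of all genes, with a median of 1.02, and none differed over 2-fold in the OVA-induced pair. Msln, which encodes mesothelin, had 500, 972, 1582 and 1355 counts. Thymus genes summed to 7.71, 8.27, 15.3 and 9.80 CPM, with Rag1, Rag2 and Ptcra at no more than 3 counts. Neuron and ganglion genes summed to 17.8, 16.5, 22.8 and 15.2 CPM, and among them Snap25, a synaptic vesicle fusion protein, had 16, 5, 69 and 0 counts.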
